A study of Mus musculus with 6 samples.

Results

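Immediate early response genes were followed in the embryonic midgut of Id2 KO and Id2 WT mice. The set held 10 genes, Fos, Fosb, Jun, Junb, Egr1, Ier2, Atf3, Dusp1, Nr4a1 and Zfp36, and it was chosen by the Fos value, which was about 4-fold lower in Id2 KO on these same arrays. The platform annotation named 1 probe for each of the 10, out of 13840 genes that have a probe named by a single symbol. Because Fos in this contrast was the reason for the choice, differences between the genotypes in these genes are given as a description. Counts of these genes past a test stand beside the counts over all probes, and nothing is read from them.

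The arrays measured total RNA from the distal midgut segment at E13.5. There were 3 samples of Id2 KO embryos and 3 samples of Id2 WT embryos, with 1 single-color array per sample. The Id2 KO embryos lack Id2, a helix-loop-helix inhibitor of transcription factors, and the study's methods name both a pure and a mixed strain background for its mutants, without saying which of them these embryos had. Whether RNA of several embryos was joined in a sample is likewise unstated, so the tests measure the spread between these samples. The Id2 transcript was not analysed here, and the genotypes rest on the labels.

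Each value was the intensity of a probe divided by the median of its array, so that 1 is the array median, and values are listed in the order of the array numbers 1, 2 and 3. A probe counted as above background on an array at a signal-to-noise score of at least 3, and it was tested when it reached this score on all 3 arrays of at least 1 genotype. This held for 12741 of 33012 probes and for 9 of the 10 genes, all but Junb. Both arrays numbered 1 stood apart from the other 4. Over the tested probes they correlated at 0.984 with each other and at 0.909 to 0.931 with the others, which correlated at 0.979 to 0.988 among themselves (Pearson's r across probes, which are not replicates). Most markers of the labelled tissue that had a probe were present. Of 12 listed markers of intestinal epithelium, 10 had a probe and 8 were tested. Of 9 smooth muscle markers 9 had a probe and 7 were tested, and of 9 gut mesenchyme markers 8 and 7. All tested ones were above background on all 6 arrays, though the filter itself asks for this on the arrays of at least 1 genotype.

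Immediate early genes are transcribed within minutes of a growth factor or stress signal, without the need for new protein, and their transcripts are short-lived. MAP kinases carry the signal to factors that already sit at the promoters, mainly serum response factor with its ternary complex partners, and CREB. The products are transcription factors of the AP-1 (Fos, Fosb, Jun, Junb and Atf3), zinc finger (Egr1) and nuclear receptor (Nr4a1) families, together with feedback regulators that end the response.

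Promoters are shown because this class of genes is known to be read out through a few shared elements, and 5 windows that hold the element of CREB, a variant of it or the element of serum response factor are printed as examples. RefSeq start sites of 8 of the 10 genes were matched in a table of GRCm38.p6 promoters, and the 250 bases upstream of the start were searched on both strands. The sequences run 5′ to 3′ on the strand of the gene. Capitals mark TGACGT, the core of the cAMP response element that CREB and ATF proteins bind, in Fos, Atf3 and Dusp1 (in Atf3 on the other strand), with the full palindrome TGACGTCA, which contains the core, in Dusp1. They mark the CArG box, the element of serum response factor, in Zfp36, and TGACGCA, a variant of the cAMP response element, on the other strand in Nr4a1.
Fos: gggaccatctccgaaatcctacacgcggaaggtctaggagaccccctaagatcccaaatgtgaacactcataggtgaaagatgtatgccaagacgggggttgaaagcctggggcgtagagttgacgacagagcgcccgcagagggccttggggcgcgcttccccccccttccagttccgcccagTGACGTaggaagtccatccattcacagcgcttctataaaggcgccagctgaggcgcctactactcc
Atf3: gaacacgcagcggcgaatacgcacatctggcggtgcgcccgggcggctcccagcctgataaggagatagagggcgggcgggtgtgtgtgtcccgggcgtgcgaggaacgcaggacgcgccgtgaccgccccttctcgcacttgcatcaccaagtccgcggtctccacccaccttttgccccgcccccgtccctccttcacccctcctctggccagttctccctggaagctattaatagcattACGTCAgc
Dusp1: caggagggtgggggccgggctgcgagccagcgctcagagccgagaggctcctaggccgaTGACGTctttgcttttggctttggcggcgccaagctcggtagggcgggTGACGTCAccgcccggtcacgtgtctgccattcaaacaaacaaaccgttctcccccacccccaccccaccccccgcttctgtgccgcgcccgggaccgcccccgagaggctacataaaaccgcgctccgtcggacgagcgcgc
Zfp36: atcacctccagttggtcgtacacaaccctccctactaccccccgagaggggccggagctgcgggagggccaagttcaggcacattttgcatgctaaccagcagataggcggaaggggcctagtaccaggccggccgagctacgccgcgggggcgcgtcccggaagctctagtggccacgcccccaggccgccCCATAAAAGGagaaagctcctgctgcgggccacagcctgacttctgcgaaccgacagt
Nr4a1: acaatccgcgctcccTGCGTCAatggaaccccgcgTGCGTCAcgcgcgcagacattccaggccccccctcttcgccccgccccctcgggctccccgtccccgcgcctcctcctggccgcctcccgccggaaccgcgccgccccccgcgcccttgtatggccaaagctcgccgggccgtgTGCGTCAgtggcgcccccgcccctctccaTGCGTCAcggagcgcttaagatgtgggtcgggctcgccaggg

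The windows lie at chr12:85473640-85473889 on the plus strand (Fos), chr1:191183334-191183583 on the minus strand (Atf3), chr17:26508473-26508722 on the minus strand (Dusp1), chr7:28379229-28379478 on the minus strand (Zfp36) and chr15:101266596-101266845 on the plus strand (Nr4a1). The core TGACGT began 66 bases before the start site in Fos, 8 bases before it in Atf3, and 191, 143 and 141 bases before it in Dusp1, where the last 2 overlap in the palindrome. It was present in 3 of the 8 windows and in 6.47% of all 32851 windows of this length, and the palindrome was in 1 of the 8 and in 1.55% of all. TGACGCA was found in Fosb and at 4 places in Nr4a1, so in 2 of the 8 windows, against 1.75% of all windows. GCGGGGGCG, an element of the EGR family, was found in Fosb, Nr4a1 and Zfp36 (2.57% of all windows). TATAAA was found in Fos (12.4% of all windows), the CArG box in Zfp36 (1.47%), and the AP-1 element TGACTCA in 0 of the 8 (4.46%). Jun and Junb held none of the 7 motifs within 250 bases. Egr1 and Ier2 had no window, and bases farther upstream were not searched, so a motif not found here can still lie beyond the window. The motifs were chosen with these promoters in view, and a match describes the letters of the window without showing a bound site.

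Fos, the partner of Jun proteins in AP-1, had a normalized value of 1.51, 2.74 and 3.38 on the Id2 KO arrays, against 2.07, 14.3 and 31.7 on the Id2 WT arrays. Id2 WT arrays 2 and 3 were high, Id2 WT array 1 lay inside the Id2 KO range, and the genotypes overlapped. The log2 means were 1.27 ± 0.61 in Id2 KO and 3.29 ± 2.02 in Id2 WT (SD, n = 3 each), a difference of -2.02 with a standard error of 0.93. The Fos probe was above background on 2 of the 3 Id2 KO arrays, with a score of 2.96 on Id2 KO array 2, and on 3 of the 3 Id2 WT arrays. Since the arrays measured pieces of a whole organ, fewer cells of a type and less RNA per cell cannot be told apart.

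Egr1, a zinc finger factor and a target of serum response factor, came nearest to Fos within the set. Its normalized value was 3.21, 4.74 and 4.07 on the Id2 KO arrays, against 1.91, 10.6 and 28.1 on the Id2 WT arrays. All Id2 KO values lay between the lowest and the middle Id2 WT value, so arrays numbered 1 went the other way from numbers 2 and 3. The log2 means were 1.98 ± 0.28 in Id2 KO and 3.05 ± 1.96 in Id2 WT (SD, n = 3 each), and the difference was -1.07.

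Atf3, a stress-induced factor of the ATF family that pairs with Jun proteins, had 2.48, 4.45 and 4.89 on the Id2 KO arrays, against 3.03, 7.73 and 10.5 on the Id2 WT arrays. Array 1 was the lowest in both genotypes, and Id2 WT array 1 again lay within the Id2 KO range. The log2 means were 1.92 ± 0.53 in Id2 KO and 2.65 ± 0.93 in Id2 WT (SD, n = 3 each), a difference of -0.73.

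The feedback regulators and Ier2 had smaller differences. Zfp36 (tristetraprolin, which binds AU-rich elements and speeds mRNA decay) had 5.68, 4.60 and 4.23 on the Id2 KO arrays, against 4.91, 7.38 and 9.33 on the Id2 WT arrays, with a log2 difference of the means of -0.54. Dusp1, a phosphatase that switches off MAP kinases, had 18.8, 28.2 and 25.1 on the Id2 KO arrays, against 14.2, 36.8 and 39.8 on the Id2 WT arrays, with a log2 difference of -0.21. Ier2, a nuclear protein of the early response, had 75.8, 61.7 and 60.6 on the Id2 KO arrays, against 56.3, 82.8 and 118 on the Id2 WT arrays, with a log2 difference of -0.32. In each of these genes Id2 WT arrays 2 and 3 were above every Id2 KO array, while Id2 WT array 1 lay within the Id2 KO range (Zfp36) or below it (Dusp1 and Ier2).

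The remaining members had log2 differences within 0.1 of 0. Jun, the partner that Fos needs to bind DNA, had 95.7, 114 and 112 on the Id2 KO arrays, against 63.5, 135 and 118 on the Id2 WT arrays (log2 difference 0.09). All Id2 KO values lay inside the Id2 WT range, where array 1 was again the lowest. Nr4a1, an orphan nuclear receptor, had 11.5, 7.58 and 7.74 on the Id2 KO arrays, against 6.71, 8.37 and 11.6 on the Id2 WT arrays (0.02). Its highest Id2 KO value was on array 1, which was its lowest in Id2 WT. Fosb, the nearest relative of Fos, had 2.12, 1.61 and 2.12 on the Id2 KO arrays, against 2.22, 1.50 and 2.02 on the Id2 WT arrays (0.04), and in both genotypes array 2 was the lowest. Junb, a Jun relative that also dimerizes with Fos, was above background on 2 of 3 arrays of each genotype and stayed untested, with 1.41, 0.52 and 1.61 on the Id2 KO arrays, against 1.15, 0.84 and 1.28 on the Id2 WT arrays.

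**Figure D1:**
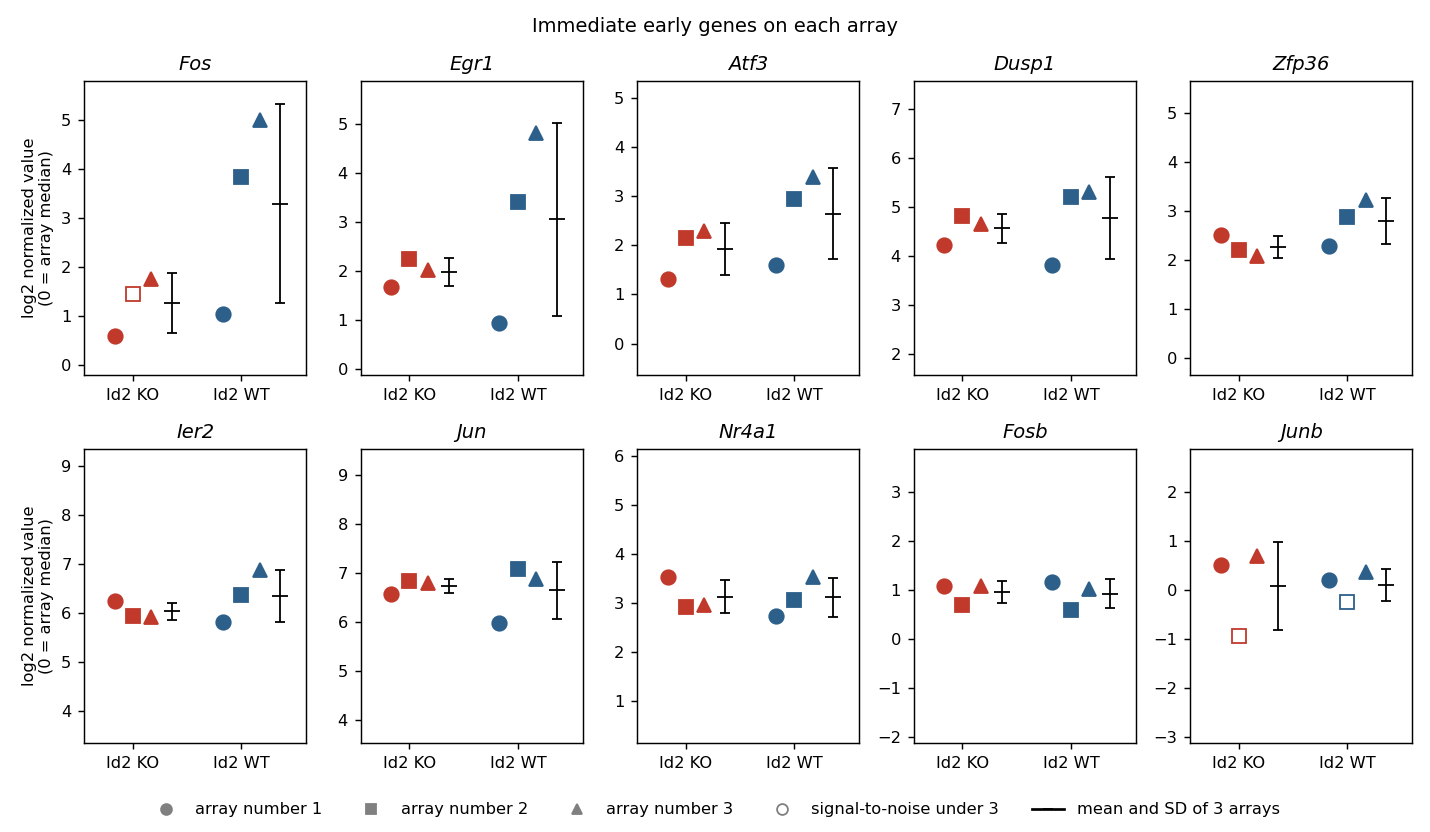
Log2 normalized value (y axis, 0 is the array median; each panel spans the same number of log2 units) of the 10 genes on each array, Id2 KO in red on the left and Id2 WT in blue on the right of each panel. Marker shape gives the array number, open markers a signal-to-noise score under 3, and bars the mean and SD of 3 arrays. For Fos, Id2 WT arrays 2 and 3 (14.3 and 31.7 before log2) stand above all Id2 KO arrays, and Id2 WT array 1 (2.07) stands among them.

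No member separated the genotypes on all arrays. The count was 0 of 9, where 4.02% of all tested probes did so in either direction. Of the 9 tested members, 6 had a lower and 3 a higher mean in Id2 KO (39.6% of all tested probes were lower), and 2, Fos and Egr1, were at least 2-fold lower (0.856% of all), while 0 were at least 2-fold higher (0.699%). The median log2 difference was -0.32 over the members and 0.04 over all tested probes. With limma and Benjamini-Hochberg adjustment 0 of the 9 members passed 0.05, as did 0 of all 12741 probes (0% in either direction). At an unadjusted p under 0.05 limma gave 234 of all probes (1.84%) and 0 members, and the methods' t-test gave 242 (1.90%) and 0 members, with 0 after adjustment. When the array number entered the fit as a replicate block, 2 members, Fos and Egr1, were among 143 probes lower in Id2 KO (1.12%), and 0 members were among 135 higher (1.06%), and with quantile normalization added to the block 0 probes were called. The members were chosen in this contrast, and nothing is read from these counts.

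Arrays of the same number were then set against each other. For Fos, Id2 KO minus Id2 WT was -0.46 in arrays numbered 1, -2.38 in number 2 and -3.23 in number 3 (log2). For Egr1 it was 0.75, -1.16 and -2.78, so the direction in number 1 was the opposite. For Atf3 it was -0.29, -0.79 and -1.10. Fos and Atf3 were the 2 tested members that were lower in Id2 KO in all 3 pairs, as were 5.64% of all tested probes. In arrays numbered 1 the whole table was shifted, with a median of 0.35 over all tested probes, against -0.04 in number 2 and -0.19 in number 3. The member medians were 0.41, -0.42 and -0.96. In number 1, 3 of 9 members were lower in Id2 KO (14.4% of all probes), in number 2 it was 8 of 9 (56.0%), and in number 3 again 8 of 9 (74.4%).

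**Figure D2:**
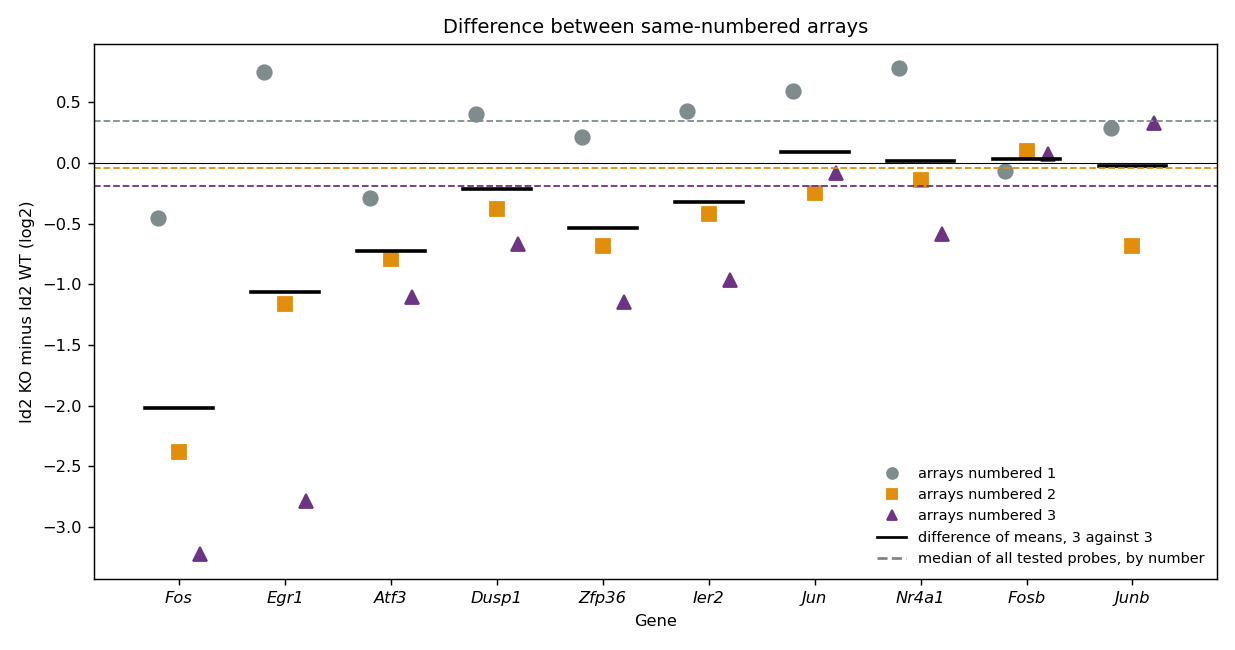
Id2 KO minus Id2 WT on the log2 scale (y axis) between arrays of the same number for the 10 genes (x axis), with marker shape and color for the number. Black bars give the difference of the means of 3 arrays each, and dashed lines the median over all tested probes for each number (0.35, -0.04 and -0.19). Fos lies at -0.46, -2.38 and -3.23, and Egr1 at 0.75, -1.16 and -2.78.

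Fos and Egr1 varied more among the Id2 WT arrays than among the Id2 KO arrays. From the lowest to the highest array, Fos spanned 2.25-fold in Id2 KO and 15.3-fold in Id2 WT, and Egr1 1.48-fold in Id2 KO and 14.7-fold in Id2 WT. A larger span in Id2 WT was found for 33 of the other tested probes in the case of Fos and for 38 in the case of Egr1. Over the 9 members the median span was 0.56 in Id2 KO and 1.09 in Id2 WT (log2), and over all tested probes 0.63 in Id2 KO and 0.77 in Id2 WT. The order Id2 WT array 3, then 2, then 1 was shared by 7 of the 9 members (Fos, Egr1, Atf3, Dusp1, Zfp36, Ier2 and Nr4a1) and by 31.7% of all tested probes. In 5 members (Fos, Egr1, Atf3, Dusp1 and Jun) array 1 was the lowest of both genotypes, as in 33.7% of all tested probes. Array 1 minus the mean of arrays 2 and 3 was -1.02 in Id2 KO and -3.36 in Id2 WT for Fos, and -0.46 in Id2 KO and -3.18 in Id2 WT for Egr1. The median over all tested probes was 0.12 in Id2 KO and -0.28 in Id2 WT (log2).

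The size of the differences depended on which Id2 WT arrays entered. Without Id2 WT array 1 the log2 difference was -3.14 for Fos, -2.12 for Egr1, -1.25 for Atf3, -0.79 for Zfp36, -0.69 for Dusp1 and -0.59 for Ier2. Without Id2 WT array 3 it was -1.17 for Fos, -0.19 for Egr1, -0.36 for Atf3, -0.33 for Zfp36, 0.05 for Dusp1 and -0.05 for Ier2. With both arrays numbered 1 left out, a choice made after the data were seen, the log2 difference was -2.80 for Fos and -1.97 for Egr1, and the other members ranged from -0.95 (Atf3) to 0.09 (Fosb). What sets the arrays numbered 1 apart was not tested.

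Likeness to Fos was then measured over the 6 arrays as the root mean square difference of the log2 profiles, each gene centred on its own mean. On this scale a completely flat profile scores 1.58, and the median over all tested probes was 1.56. Egr1 scored 0.54 and was the nearest member, with 6 other tested probes nearer to Fos. Atf3 followed at 0.91 with 91 probes nearer, Dusp1 at 1.17 with 459, Zfp36 at 1.26 with 999 and Ier2 at 1.30 with 1419. Jun (1.40) and Nr4a1 (1.50) scored below the flat profile and Fosb (1.67) above it, with 3027, 5069 and 8307 probes nearer to Fos. The score depends on amplitude as well as shape. A gene that varies little therefore scores near the flat profile even where its order of arrays is that of Fos. The members fell along a range, from Egr1 and Atf3 near Fos to Nr4a1 close to the median probe and Fosb beyond it.

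**Figure D3:**
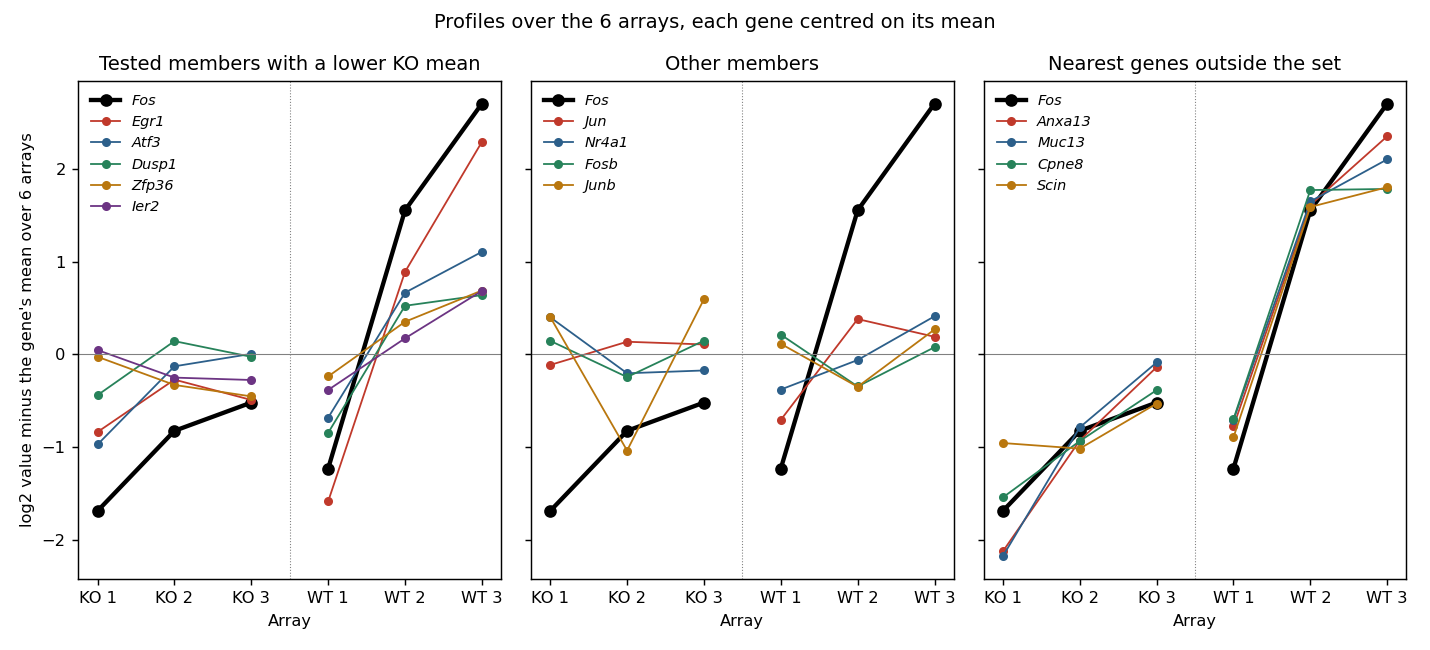
Log2 value minus the mean of the gene over 6 arrays (y axis) on each array (x axis), for the tested members with a lower mean in Id2 KO (left), the other members (middle) and 4 named genes nearest to Fos (right). Fos is repeated in black in each panel. Egr1 and Atf3 have the same Id2 WT order as Fos, and the 4 genes on the right run closer to Fos than any member does.

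The named genes with the most similar profiles were not immediate early genes, apart from Egr1. They were Anxa13 (0.34), Muc13 (0.42), Cpne8 (0.45), Scin (0.50) and Egr1 (0.54), and 2 further probes in this range have no gene name here. Anxa13, a calcium-dependent membrane-binding annexin of epithelia, had 1.95, 4.47 and 7.73 on the Id2 KO arrays, against 4.97, 26.0 and 43.5 on the Id2 WT arrays. Muc13, a transmembrane mucin of the gut epithelium, had 1.08, 2.84 and 4.61 on the Id2 KO arrays, against 3.0, 15.4 and 21.1 on the Id2 WT arrays. Unlike Egr1, both were lower in Id2 KO in all 3 pairs, though Id2 WT array 1 stayed within the Id2 KO range. Cpne8, a copine, had 3.06, 4.67 and 6.84 on the Id2 KO arrays, against 5.50, 30.5 and 30.8 on the Id2 WT arrays. Scin, a gelsolin relative that severs actin filaments, had 3.13, 3.0 and 4.20 on the Id2 KO arrays, against 3.27, 18.3 and 21.2 on the Id2 WT arrays. These genes were picked for likeness to Fos, so their differences are likewise a description.

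**Figure D4:**
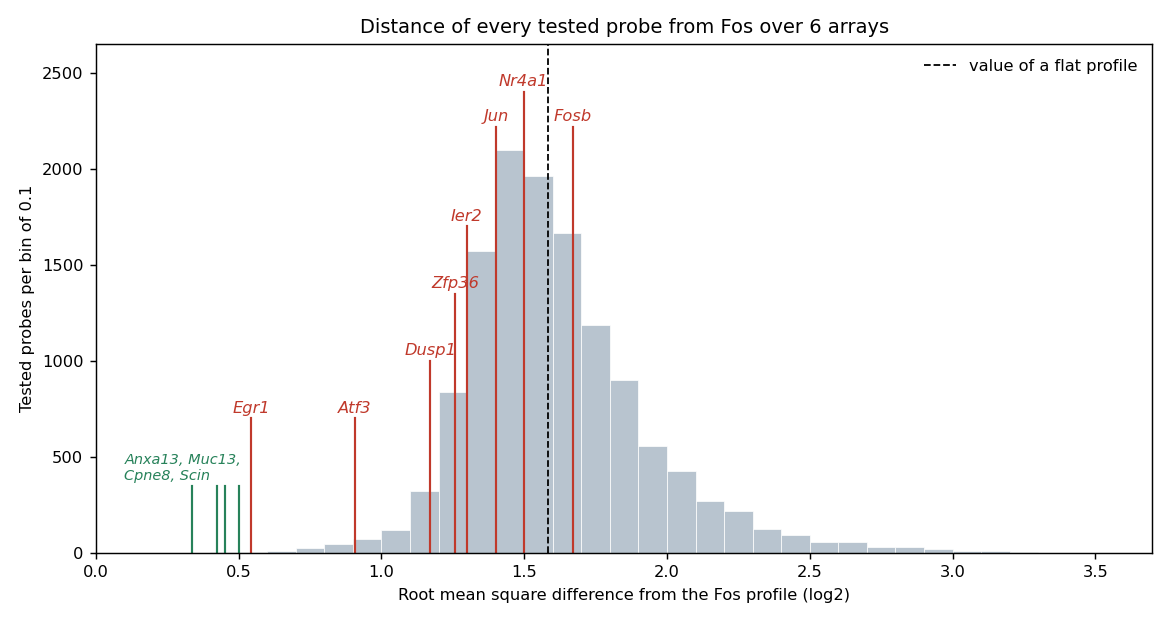
Number of tested probes (y axis, bins of 0.1) by root mean square difference from the Fos profile over 6 arrays (x axis, log2 units). Red lines mark the members, green lines 4 named genes outside the set, and the dashed line a flat profile (1.58). Egr1 (0.54) and Atf3 (0.91) lie in the sparse left tail, and Jun (1.40), Nr4a1 (1.50) and Fosb (1.67) in the main peak.

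Other immediate early genes were compared from 2 further lists, which were also put together with earlier results of these arrays known. Of 22 transcription factors 14 were tested, and 0 passed limma's adjusted test in either direction, with 0 at an unadjusted p under 0.05. There were 7 lower and 7 higher means in Id2 KO and a median log2 difference of -0.01. Nr4a2, a relative of Nr4a1, had 1.83, 1.75 and 2.04 on the Id2 KO arrays, against 2.20, 3.15 and 2.66 on the Id2 WT arrays, and its difference of -0.50 was without overlap but had an adjusted p of 1. Klf4, a zinc finger factor of differentiating epithelium, differed by 0.40 and Hes1, the effector of Notch signaling, by 0.36, each with overlap and an adjusted p of 1 with limma. The order of Fos in Id2 WT was seen in 6 of the 14.

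Of 29 feedback and effector genes 18 were tested, and again 0 passed the adjusted test in either direction, with 1 at an unadjusted p under 0.05. The median log2 difference was -0.01, with 10 lower and 8 higher means. The 1 gene was Ier3, a stress-induced survival factor, with 1.74, 1.51 and 1.84 on the Id2 KO arrays, against 2.51, 2.14 and 3.08 on the Id2 WT arrays. Its difference was -0.59 without overlap, at an unadjusted p of 0.048 and an adjusted p of 1 with limma. Arc, an early gene of neurons, differed by 0.43 without overlap and Gadd45b, a stress sensor that binds MAP3K4, by -0.49 with overlap, both at an adjusted p of 1 with limma. The order of Fos in Id2 WT was seen in 7 of the 18.

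Array 1 was the highest in both genotypes for 7 of these 18 genes. It was the lowest in both for 5, as in 33.7% of all tested probes, and Fos was lowest there. The share of all tested probes with array 1 highest in both was not counted. Nothing is therefore read from the 7, or from the count of heat shock genes below. Btg1, an antiproliferative factor, had 111, 22.0 and 21.7 on the Id2 KO arrays, against 83.9, 19.2 and 24.4 on the Id2 WT arrays. Ccn1, a matricellular target of serum response factor and YAP, had 12.0, 2.91 and 2.90 on the Id2 KO arrays, against 12.8, 5.36 and 7.38 on the Id2 WT arrays. Both belong to the 7, and they were named after their values were seen. Of the 5 tested heat shock genes, array 1 was the highest in both genotypes for 3 (Hsph1, Bag3 and Hspa5) and the lowest in both for 2 (Hmox1 and Dnajb1). Hsph1, a chaperone of the HSP110 family, had 32.4, 12.1 and 11.6 on the Id2 KO arrays, against 23.1, 9.98 and 11.8 on the Id2 WT arrays. Hmox1 (heme oxygenase) differed by 0.40, Bag3 (a co-chaperone) by 0.31 and Hsph1 by 0.24 between the genotypes, each at an adjusted p of 1 with limma. All 5 heat shock genes had higher means in Id2 KO, with a median of 0.24, and 0 passed the test (39.6% of all tested probes had lower means). Between arrays numbered 1, 2 and 3 their medians were 0.49, 0.12 and -0.04, against 0.35, -0.04 and -0.19 over all tested probes.

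The kinases and factors upstream of the set were measured for 9 of 23 genes, 3 with lower and 6 with higher means and a median of 0.09. Srf, serum response factor itself, had 43.6, 28.7 and 29.0 on the Id2 KO arrays, against 24.7, 27.4 and 27.1 on the Id2 WT arrays. Its difference of 0.33 was without overlap, at an adjusted p of 1 with limma. Rps6ka3, a kinase below ERK, differed by 0.45 without overlap and Elk3, a ternary complex factor, by 0.46 with overlap, both at an adjusted p of 1. Of 16 AP-1 partners and targets 4 were tested, 1 with a lower and 3 with higher means, and the median was 0.08. With limma 0 genes passed the adjusted test in either list, and 0 were at an unadjusted p under 0.05.

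The order of the Id2 WT arrays seen in Fos was held by most markers of epithelium and smooth muscle, and by a minority in each other marker list. Summed values were lowest on Id2 WT array 1 and highest on array 3 for intestinal epithelium, smooth muscle, enteric neural crest, endothelium and macrophage. For gut mesenchyme and erythroid cells they were not. A sum is led by the brightest genes of its list, and the endothelial sums on Id2 WT arrays 2 and 3 were close (116 and 118). By gene the order held for 6 of 8 markers of epithelium, 6 of 7 of smooth muscle, 3 of 7 of mesenchyme, 2 of 5 of enteric neural crest, 2 of 6 of endothelium, 2 of 5 of macrophage and 0 of 5 of erythroid cells, against 31.7% of all tested probes. The summed normalized value of the epithelial markers was 641 to 748 on the Id2 KO arrays and 445 to 1314 on the Id2 WT arrays. All 8 had lower means in Id2 KO (39.6% of all tested probes did), with a median log2 difference of -0.33. With limma 0 passed the adjusted test, with 0 at an unadjusted p under 0.05. Between arrays numbered 1, 2 and 3 the epithelial medians were 0.50, -0.56 and -0.91, so the direction in number 1 was the opposite. Cdx2, the intestinal homeobox factor, had 67.4, 71.5 and 62.6 on the Id2 KO arrays, against 46.8, 112 and 133 on the Id2 WT arrays, a difference of -0.40. Cldn7, a tight junction protein, differed by -0.32 and Krt19, a keratin, by -0.42, each with overlap and an adjusted p of 1 with limma. The part of any of these marker lists in the values of Fos, Egr1 and Atf3 was not tested.

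Summed markers of smooth muscle were 925 to 1079 on the Id2 KO arrays and 569 to 1570 on the Id2 WT arrays, and those of gut mesenchyme 3486 to 5447 in Id2 KO and 2811 to 5777 in Id2 WT. The medians of their log2 differences were 0.16 over 7 genes and 0.04 over 7 genes. Smtn, Lmod1 and Myocd (smooth muscle) differed by 0.29, 0.22 and 0.16, and Lum, Pdgfra and Foxf2 (mesenchyme) by -0.42, 0.39 and 0.24. For enteric neural crest the sums were 422 to 456 in Id2 KO and 322 to 514 in Id2 WT, with a median of 0.07 over 5 genes, and Ednrb, Tubb3 and Phox2a differed by 0.31, 0.07 and 0.05.

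Endothelial sums were 105 to 137 in Id2 KO and 59.4 to 118 in Id2 WT. All 6 genes had higher means in Id2 KO, where 39.6% of all tested probes had lower means. The median difference was 0.42, with 0.37, 0.70 and 0.54 for Esam, Pecam1 and Cldn5. Between arrays numbered 1, 2 and 3 the endothelial medians were 1.18, 0.36 and -0.13, against 0.35, -0.04 and -0.19 over all tested probes. Macrophage sums were 65.0 to 68.1 in Id2 KO and 64.7 to 77.2 in Id2 WT, with a median of -0.13 over 5 genes and differences of -0.32, -0.20 and -0.13 for Aif1, C1qa and C1qb. Erythroid sums were 1498 to 2338 in Id2 KO and 1239 to 1785 in Id2 WT, with higher means in Id2 KO for all 5 genes, a median of 0.72 and differences of 0.88, 0.72 and 0.72 for the embryonic globins Hba-x, Hbb-y and Hbb-bh1. With limma 0 genes of these 6 marker lists passed the adjusted test, and 1, Hba-x, was at an unadjusted p under 0.05. None of these lists was tested against the members.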

How the data were processed

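RNA was amplified for 1 round and hybridized to Applied Biosystems mouse genome survey arrays. For each probe the deposited files hold the scanner's intensity, its signal-to-noise score and quality flag, and a ratio of the intensity to the median of its array, which the authors computed. The deposited series table holds identical ratios (largest difference 0). Probes with a flag of 5000 or more on any array were left out (32189 of 33012 kept), although the methods word this limit the other way round. The 12741 probes that reached a score of 3 on every array of 1 genotype or of both were tested, and 11195 of them reached it on all 6 arrays. Log2 of the ratio, with nothing added, entered limma 3.58.1 (R 4.3.3) over all 6 arrays, with Benjamini-Hochberg adjustment. The methods' t-test was two-sided with equal variance on the same values. The number of arrays limits the precision.

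Genes were named from the platform annotation (14411 probes with 1 symbol, 247 with several, 18354 with none). Where a gene had several tested probes, the brightest on average was used. Named genes are the 10 members, the 3 smallest unadjusted p-values in each list of at least 5 tested genes, and the 5 named genes nearest to Fos. The members and the lists were chosen with earlier results of these data known. Subtracting genotype means left deviations that correlated between same-numbered arrays at 0.838 (number 1), 0.644 (number 2) and 0.579 (number 3). Differently numbered arrays reached 0.638 (Id2 KO 3 with Id2 WT 2) and 0.549 (Id2 KO 2 with Id2 WT 3), so the deviations set number 1 apart from the others and do not tell numbers 2 and 3 apart. The numbers were used as pairs on this basis alone, as the labels do not say whether same-numbered arrays share a litter or a day. In data simulated for Id2 KO against Id2 WT over 12741 probes, the fit found 0 of 50 probes changed by a log2 value of 1, 37 of 50 at 2, 48 of 50 at 3 and 50 of 50 at 4, and made 5 false calls. The simulated arrays were drawn independently, without the deviations that same-numbered arrays share. These figures therefore check the fit and do not give its power on the real arrays. The alternatives changed the normalization (quantile), the filter on dim probes, the added value (0.5), the source of the values, the replicate block, the prior, the test, the probe rule and the arrays used. Leaving out both arrays numbered 1 was added after the data were seen. Figures were drawn with matplotlib 3.10.9.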

Additional observations from a re-analysis of the deposited data

How the results depend on the processing

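Over 16 other settings (15 for Fos), 141 of 143 log2 differences of the members moved by less than the spread between replicates. The 2 that moved further were Zfp36 (-0.91) and Nr4a1 (-0.36) without both arrays numbered 1. Several settings (the filter, the source of the values, the block, the prior and the test) cannot move a log2 difference. The limit was the pooled SD within genotypes, which was wide for Fos and Egr1 (SD in Id2 WT 2.02 and 1.96). The count is therefore not a measure of stability. Fos ranged from -3.14 (without Id2 WT replicate 1) to -1.17 (without Id2 WT replicate 3) and Egr1 from -2.12 to -0.19 under the same settings, with no change of sign for Fos, Egr1, Atf3, Zfp36 and Ier2. The sign changed in 10 values in all, of Dusp1, Fosb, Jun and Nr4a1. With the replicate block 135 probes were called higher and 143 lower, 2 members (Fos and Egr1) among the lower, against 0 and 0 without it. In that fit every probe shares 1 variance (standard error 0.27), and quantile normalization added to it gave 0 calls. The cause was not tested. The block changed no call in the lists of other genes. Without Id2 WT replicate 1, 810 probes were at an unadjusted p under 0.05, against 234 with all arrays, and 0 passed adjustment in both. Fos does not pass the filter at a score of 3 on all 6 arrays, so it has no value there. A block for slide or scan was left out, as neither is known here. Values near background, as for Fos and Junb in Id2 KO, are limited by the signal over background.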
